A study of Urocitellus parryii with 44 samples.

Results

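Genes of mitochondrial fission, fusion and cristae were compared between winter torpor and summer activity in brown adipose tissue of arctic ground squirrels (Urocitellus parryii). The genes were set by name as Ghitm, Marchf5, Mfn1, Mfn2, Opa1, Dnm1l, Fis1, Immt, Phb and Phb2, and every probe annotated with 1 of these symbols alone was taken. All 10 genes were represented, of 11626 symbols in all, by 28 of the 38400 probes, and the 28 probes could all be tested. Each animal's total RNA carried a 33P label and was read on 4 mouse cDNA membranes (MA07, MA08, MA10 and MA11). The summer group held 3 active animals sampled in August, and the winter group held 5 torpid animals. The labels name the tissue, the season and the state, with no genotype, treatment or age, and season and torpor changed together. For torpid animal 5 and summer animals 1 and 2 the extract was divided and read in 2 columns, whose log2 values were averaged here. Values are log2 of the spot intensity over the median of its column, so 0 is the median spot of a membrane. The probes are mouse sequences, and a symbol names the mouse gene.

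Mitochondria fuse and divide continuously. The mitofusins Mfn1 and Mfn2 are GTPases that join outer membranes, Opa1 is the GTPase that joins inner membranes and holds cristae junctions narrow, and Dnm1l (Drp1) is the GTPase that constricts and divides the organelle after recruitment to the outer membrane. The cristae, the folds of the inner membrane that carry the respiratory chain, are shaped by Opa1, by the Immt (mitofilin) complex and by the prohibitin rings. Brown adipocytes are packed with mitochondria rich in cristae, the site of their heat production.

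Of the 10 genes, Ghitm and Marchf5 each had 1 probe that passed the test as higher in torpor, and no probe of the other 8 passed. Ghitm, an inner membrane protein linked to cristae structure, was 7.20-fold higher by the probe that passed, and all 6 of its probes had positive differences. Marchf5, an outer membrane ubiquitin ligase that acts on fission and fusion proteins, was 5.56-fold higher by 1 of its 2 probes. By limma with Benjamini-Hochberg adjustment over all 37848 tested probes, 2 of the 28 probes passed an adjusted p of 0.05, both higher in torpor, where 0.309% of all tested probes passed in either direction and 0.259% passed as higher, and 0 passed as lower, where 0.0502% did. At an unadjusted p under 0.05 there were 8 higher and 2 lower probes, where 11.6% of all tested probes lay in either direction. In 6 of the 28 probes (21.4%) the 3 summer and 5 torpid animals did not overlap, against 8.5% of all tested probes. In 5 of these the torpid animals were higher, as in 4.37% of all tested probes. Without the 6 Ghitm probes the groups were apart in 2 of 22 (9.09%), with the torpid animals higher in 1 (4.55%), near the shares of all probes. The median log2 difference of the 28 probes was 0.28, and 0.13 for the 22 probes without Ghitm, against a median of 6.5e-05 over all probes. Under cyclic loess the median of the 28 was 0.165. Positive differences were held by 19 of the 28, where 50% of all probes were positive. The count was 20 under quantile normalization and under cyclic loess, and 21 with animal weights. It was 18 with a floor at the 10th percentile and with the second column of each split RNA. With a replicate block it was 17 of 27 tested. Of the 22 probes without Ghitm 13 were positive (59.1%). The genes were chosen with earlier results of these data known, so the shares set beside those of all probes are a description and not independent support.

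**Figure D1:**
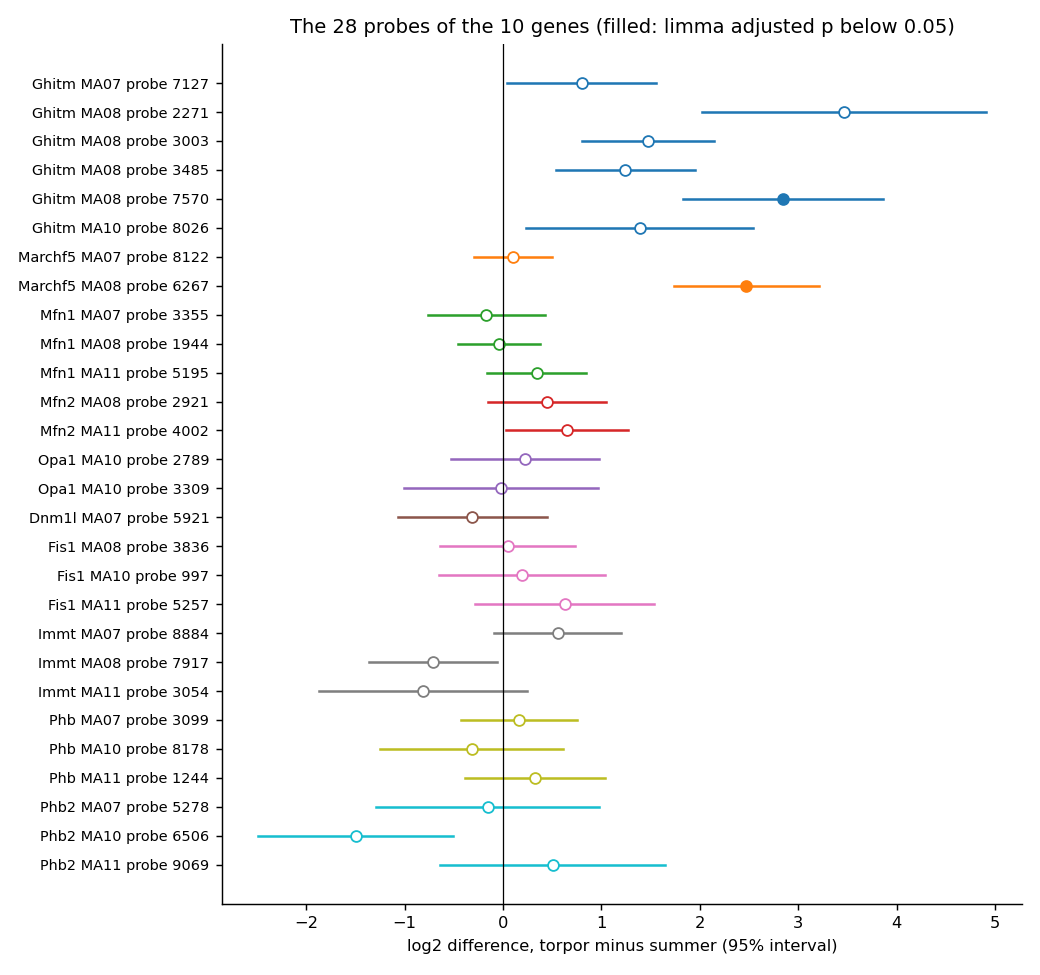
Log2 difference between torpid and summer animals for each of the 28 probes, with its 95% interval from the limma fit; colours mark genes and filled points the probes with an adjusted p below 0.05. The 6 Ghitm probes lie between 0.80 and 3.46, and the 2 filled points are Ghitm at 2.85 and Marchf5 at 2.47.

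Ghitm belongs to the family of transmembrane BAX inhibitor motif proteins and is the member found in the inner mitochondrial membrane. At its probe 7570 on MA08, summer animals 1 to 3 gave log2 values of 0.87, -0.73 and -0.14, and torpid animals 1 to 5 gave 3.55, 2.91, 2.73, 3.50 and 1.55. Every torpid animal lay above every summer animal, with torpid animal 5 nearest to them. The difference was 2.85 ± 0.46 (SE; limma adjusted p = 0.035), with a 95% interval of 1.83 to 3.87. The call was lost without summer animal 2 or 3 and without torpid animal 1, 2, 3 or 4, when the difference ran from 2.48 to 2.88, and adjusted p reached 0.10 without torpid animal 2.

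The largest Ghitm difference came from probe 2271 on the same membrane, which did not pass. Its summer values were 1.68, -1.68 and 0.69 and its torpid values 3.10, 4.30, 4.02, 4.46 and 2.58. The groups did not overlap, but the summer animals spread over more than 3 log2 units (SD 1.72, n = 3). The difference was 3.46 ± 0.66 (limma adjusted p = 0.062), and 2.51 without summer animal 2, the lowest animal. Without summer animal 1 it was 4.19 (adjusted p = 0.016).

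Probes 3003 and 3485, also on MA08, are spots of the same clone and serve as repeat spots rather than separate evidence. At probe 3003 the summer values were 0.22, 0.07 and -0.29 and the torpid values 2.07, 1.57, 1.35, 1.75 and 0.60. At probe 3485 they were 0.39, 0.11 and 0.46 in summer and 1.91, 1.55, 1.65, 2.15 and 0.56 in torpor. The groups stood apart at both spots, by the margin of torpid animal 5, the lowest torpid animal on all 4 MA08 spots of the gene. The differences were 1.47 ± 0.31 and 1.24 ± 0.32 (limma adjusted p = 0.084 and 0.16), and both passed without torpid animal 5, at 1.69 and 1.495.

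On the other membranes the groups overlapped. Probe 7127 on MA07, at the 96.4 percentile of signal, gave 1.53, 1.25 and 2.80 in summer and 3.10, 2.47, 2.57, 2.88 and 2.27 in torpor. Summer animal 3 lay within the torpid range, the other 2 summer animals lay below it, and the difference was 0.80 ± 0.34 (limma adjusted p = 0.40). It was 1.27 without summer animal 3 (adjusted p = 0.086), 0.495 without summer animal 2 (adjusted p = 0.61) and 0.47 under cyclic loess (adjusted p = 0.69). Probe 8026 on MA10 gave 2.39, 0.30 and -0.50 in summer and 2.89, 2.42, 1.36, 1.78 and 2.14 in torpor, with summer animal 1 within the torpid range. This difference was 1.39 ± 0.55 (adjusted p = 0.33), and it passed without summer animal 1, at 2.22 (adjusted p = 0.040), whose split columns differed by 1.10 at this probe. Without summer animal 3 it was 0.77 (adjusted p = 0.71).

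**Figure D2:**
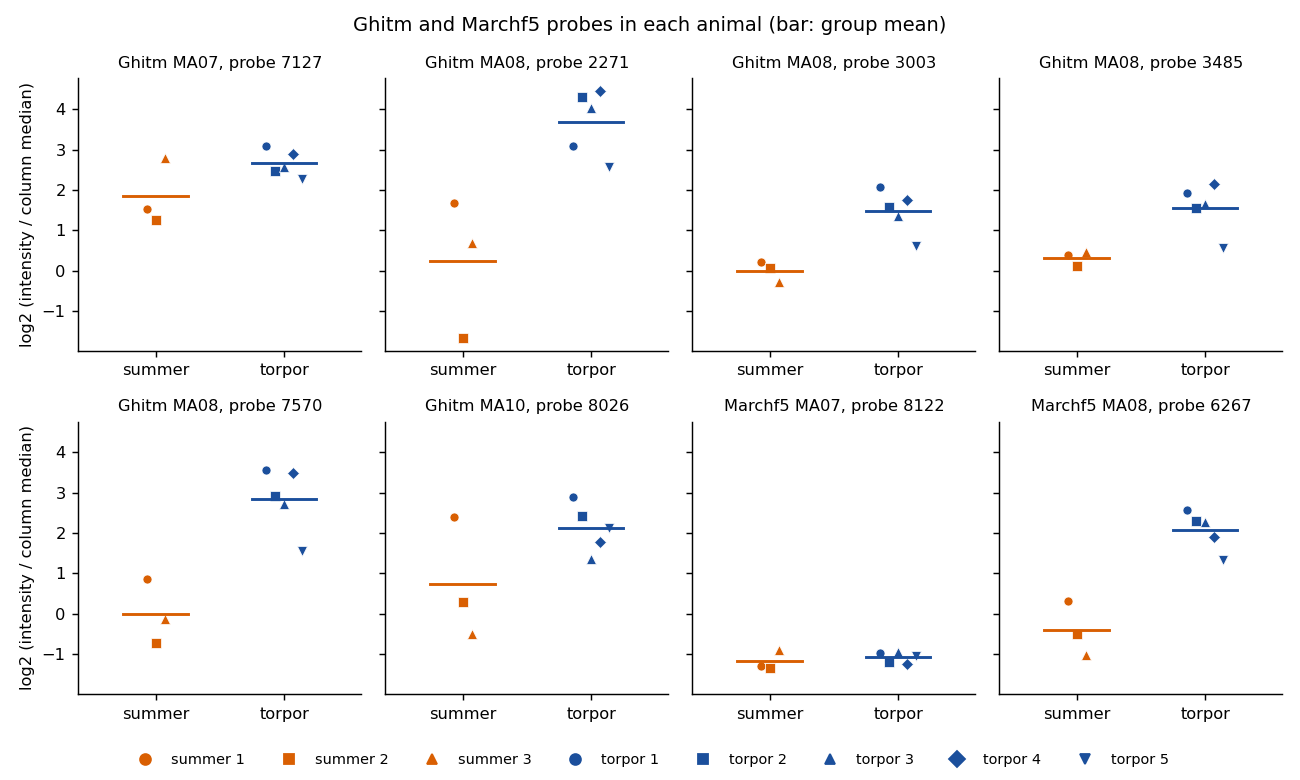
Log2 of intensity over the column median in each animal for the 6 Ghitm and 2 Marchf5 probes, with symbols for animals and bars for group means. The 5 torpid animals lie above the 3 summer animals in all 5 MA08 panels, and the groups overlap in the MA07 and MA10 panels.

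Marchf5 (also called MITOL) tags mitofusins, Drp1 and its receptors with ubiquitin and so affects the balance of fission and fusion. Probe 6267 on MA08 gave 0.31, -0.49 and -1.02 in summer and 2.56, 2.31, 2.26, 1.90 and 1.33 in torpor. The groups were separated by more than 1 log2 unit, and the difference was 2.47 ± 0.34 (limma adjusted p = 0.016), with a 95% interval of 1.73 to 3.21. It passed with each animal left out except torpid animal 2 (2.42, adjusted p = 0.065). The other Marchf5 probe, 8122 on MA07, gave -1.29, -1.35 and -0.91 in summer and -0.98, -1.19, -0.94, -1.24 and -1.05 in torpor. This probe is dim, at the 21.0 percentile of signal on its membrane against 84.7 for probe 6267 on MA08, and all 8 animals lay close together. Its difference was 0.10 ± 0.18 (adjusted p = 0.86), with a 95% interval of -0.29 to 0.49 that does not meet the interval of the MA08 probe. The 2 probes are of different clones, so the rise of Marchf5 rests on 1 clone.

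The split RNAs give the technical error of these readings. Over the 5 MA08 probes of Ghitm and Marchf5, the 2 columns of a split RNA differed by a median of 0.29 and at most 0.66 log2 units in 15 pairs. Over all 28 probes 13 of 81 such pairs differed by more than 1. These gaps do not include the spread between animals. Spots within 10 index positions of the 5 MA08 probes of Ghitm and Marchf5 did not pass the test, and their median differences lay between -0.05 and 0.14. Around the MA07 and MA10 probes of these genes no spot passed either, with medians from -0.20 to 0.15. A spot 2 positions from Marchf5 probe 6267, at the 99.97 percentile of signal, was at 1.65 (adjusted p = 0.28), and the part of such neighbours in the result was not tested.

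All 5 probes of the set whose torpid animals lay wholly above the summer animals were on MA08, which held 9 of the 28 probes. On that membrane 3.88% of tested probes were separated upward and 0.324% passed as higher, while MA11 had 5.54% and 0.265%, MA07 had 4.04% and 0.21%, and MA10 had 4.03% and 0.237%. The 7 MA07, 6 MA10 and 6 MA11 probes held no such separation, and MA08 also held 4 of the 6 Ghitm spots.

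Neither outer membrane fusion gene had a probe that passed. Mfn1 gave differences of -0.17 ± 0.27 on MA07, -0.04 ± 0.19 on MA08 and 0.34 ± 0.23 on MA11, with adjusted p of 0.60 or more and overlapping groups at each probe. Its MA08 probe had the smallest SE of the 3, with 0.43, 0.26 and 0.09 in summer and 0.03, 0.33, 0.39, 0.19 and 0.16 in torpor. Mfn2, which also tethers mitochondria to the endoplasmic reticulum, had positive differences at both probes, 0.45 ± 0.27 on MA08 and 0.65 ± 0.29 on MA11 (limma adjusted p = 0.57 and 0.41). On MA11 the Mfn2 values were 2.20, 2.55 and 1.88 in summer and 3.33, 2.62, 2.60, 2.43 and 3.30 in torpor. Only torpid animal 4 lay below the highest summer animal there, and the difference was 0.27 under quantile normalization and 0.14 under cyclic loess. No setting brought a Mfn2 probe to an adjusted p under 0.29.

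Opa1 was measured on MA10 alone, by 2 clones. The brighter, probe 2789, gave 0.98, 0.81 and 1.02 in summer and 1.28, 0.91, 1.06, 1.56 and 0.995 in torpor, a difference of 0.23 ± 0.36. Probe 3309 gave -0.02 ± 0.47, with a torpid SD of 0.82 (n = 5). The 2 columns of torpid animal 5 differed by 1.30 at probe 2789 and 1.78 at probe 3309. For summer animals 1 and 2 the columns differed by 0.29 and 1.18 at probe 2789, and by 0.03 and 0.22 at probe 3309.

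For the division machinery, the only Dnm1l probe was dim (23.9 percentile on MA07) and gave -0.59, -0.11 and -1.55 in summer and -0.95, -1.22, -0.82, -0.61 and -1.72 in torpor. Summer animals 1 and 2 lay above all torpid animals, summer animal 3 lay within their range, and the difference was -0.31 ± 0.34 (limma adjusted p = 0.76). Fis1, a small outer membrane protein that takes part in fission and in mitochondrial quality control, gave 0.05 ± 0.31, 0.19 ± 0.40 and 0.63 ± 0.42 on MA08, MA10 and MA11 (lowest adjusted p = 0.597). On MA11 Fis1 stood at 2.90, 4.18 and 2.48 in summer and at 4.17, 3.73, 3.51, 3.03 and 4.62 in torpor, where summer animal 2 was above 4 of the 5 torpid animals. The difference was 1.12 without summer animal 2, 0.27 without summer animal 3 and 0.31 under quantile normalization.

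Among the genes of cristae other than Ghitm, the differences were mixed in sign. Immt, the core subunit of the complex that forms cristae junctions, was read by 2 clones. The clone spotted on both MA08 and MA11 gave -0.71 ± 0.30 and -0.81 ± 0.49 (limma adjusted p = 0.38 and 0.55), and the other clone, on MA07, gave 0.56 ± 0.29 (adjusted p = 0.497). At the MA11 spot of Immt the summer values were 0.68, 2.16 and 3.45 and the torpid values 1.84, 1.13, 0.998, 0.87 and 1.58. Summer animal 3 was the highest animal and summer animal 1 the lowest, and the difference was -0.13 without summer animal 3 and -1.52 without summer animal 1 (adjusted p = 0.95 and 0.095).

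The prohibitins Phb and Phb2 assemble together into rings in the inner membrane that stabilise Opa1 and other membrane proteins. Phb gave 0.17 ± 0.27, -0.32 ± 0.44 and 0.32 ± 0.33 on MA07, MA10 and MA11, with overlapping groups. Phb2 probe 6506 on MA10 was the only probe of the set whose torpid animals all lay below the summer animals, where 4.13% of all tested probes did. It stood at 0.57, 0.91 and 2.22 in summer and at -1.22, 0.43, -0.45, 0.29 and -0.34 in torpor, a difference of -1.50 ± 0.47 (limma adjusted p = 0.21). The same clone on MA11 (probe 9069) lay near the bottom of its membrane, at the 2.59 percentile, with values in only 2 summer and 2 torpid animals, and gave 0.50 ± 0.50. The third Phb2 probe, on MA07, gave -0.16 ± 0.51, and its duplicate columns of summer animal 2 read 3.43 and 0.34.

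To put all probes of a gene into 1 value, each probe was centred on its mean over the 8 animals and the probes were averaged. Over 11091 genes limma called 20 (0.18%), of which 16 were higher in torpor (0.144%) and 4 lower (0.0361%), and 1 of the 10 genes, Marchf5. Its average was -0.50, -0.94 and -0.98 in summer and 0.78, 0.55, 0.65, 0.32 and 0.13 in torpor, 2.44-fold higher (1.29 ± 0.20, adjusted p = 0.036). This average joins the MA08 probe at 2.47 and the MA07 probe at 0.10, so it rests on the same 1 clone as the probe call. The Ghitm average was -0.51, -1.80 and -1.19 in summer and 1.08, 0.85, 0.59, 1.06 and -0.08 in torpor, 3.65-fold higher and not past the threshold (1.87 ± 0.33, adjusted p = 0.063, 95% interval 1.13 to 2.60). With the brightest probe in place of the average, Ghitm was at 0.80 (adjusted p = 0.34). For both genes each torpid animal lay above each summer animal, as was so for 4.47% of all genes, with 3.68% apart in the other direction and 8.15% in either. The Marchf5 call was kept in 2 of the 8 fits that left out an animal, those without summer animal 1 or torpid animal 5, and in the same 2 fits Ghitm passed, at 2.20 and 2.06. Without summer animal 2 or 3, or torpid animal 1, 2, 3 or 4, neither gene passed.

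None of the other 8 genes passed as an average. Mfn2 was the nearest, at 0.55 ± 0.22 (adjusted p = 0.36, unadjusted 95% interval 0.06 to 1.03), and was 0.31 under cyclic loess and 0.32 without summer animal 3. Phb2 gave -0.83 ± 0.43 and Immt -0.32 ± 0.27, and in both the summer animals spread widely (Phb2 from -0.48 to 1.74, Immt from -0.52 to 0.73). Without summer animal 3 they were -0.21 and -0.058, and without summer animal 1 they were -1.32 and -0.69. The intervals for Mfn1 (-0.33 to 0.42), Phb (-0.40 to 0.51) and Opa1 (-0.43 to 0.64) lay within 1 log2 unit of 0, whereas those of Dnm1l (-1.06 to 0.43) and Phb2 (-1.77 to 0.12) reached beyond it. Of the 10 averages 3 had an unadjusted p under 0.05, where 12.2% of all genes did, and 7 were positive, where 51.2% were, or 5 under cyclic loess, where Mfn1 and Phb changed sign.

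**Figure D3:**
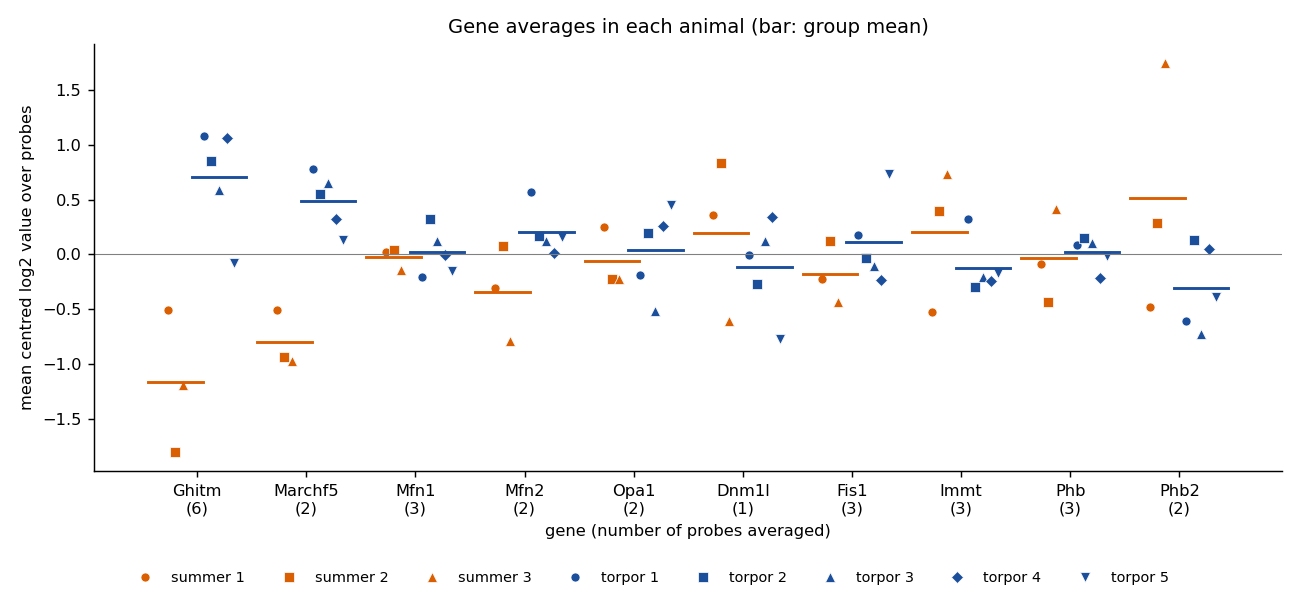
Average of the centred log2 values over the probes of each gene, 1 point per animal, with bars for group means and the number of probes averaged under each symbol. Summer and torpid animals are apart for Ghitm and Marchf5 and overlap for the other 8 genes, and summer animal 3 stands highest for Phb2, at 1.74.

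Genes whose probes followed the called probes most closely over the 8 animals were sought among the single-symbol probes of MA08. For Ghitm probe 7570 these were Dlst, Cycs, Ndufb5, Dld and Sucla2, with Pearson correlations of 0.98, 0.98, 0.97, 0.97 and 0.97 over 6520 probes compared. For Marchf5 probe 6267 they were Dld, Sucla2, Csnk1a1, Dlst and Ppp4c, with 0.98, 0.98, 0.97, 0.97 and 0.96 over 6523 probes. All of these had positive differences, from 0.75 for Ndufb5 to 4.30 for Sucla2, so each correlation contains the step between the groups and is given as a description. Ndufb5 (limma adjusted p = 0.20) and Csnk1a1 (1.19, adjusted p = 0.065) did not pass.

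Other genes of the same processes were taken from a list of 58, covering fission factors and their receptors, proteases of Opa1, the cristae junction complex, relatives of Ghitm, mitochondrial transport, mitophagy and cardiolipin synthesis. A single-symbol probe was present for 49 of them, with 132 probes, 131 of which were tested. None passed in limma, and 10 probes were higher and 4 lower at an unadjusted p below 0.05, against 6.39% and 5.18% of all probes. Their median difference was 0.05. The values over 1 log2 unit in either direction were Mtfp1 (1.59 ± 0.44 on MA10, a fission promoting protein), Yme1l1 (1.44 ± 0.38 on MA11, a protease that cleaves Opa1), Bnip3l (1.21 ± 0.25 on MA11, a mitophagy receptor), Fundc1 (1.11 ± 0.59 on MA10, also a mitophagy receptor) and Tmem11 (-1.01 ± 0.46 on MA10, an inner membrane morphology protein).

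Of these, Bnip3l came nearest to the threshold (limma adjusted p = 0.078), and its 4 probes were all positive, from 0.20 upwards. Fundc1 was positive at all 6 probes, from 0.25 upwards. Of these, probes 86 and 569 on MA08 are spots of 1 clone, and probes 1221 and 1704 on MA08 are spots of another. In contrast, the other spots of Mtfp1, both of 1 clone, gave -0.35 and -0.33 and those of Yme1l1 ran from -0.37 to 0.25. As gene averages 0 of 48 passed, with an unadjusted p under 0.05 for 6 higher and 0 lower, against 7.02% and 5.15% of all genes. The lowest adjusted p was 0.14 for Mul1, another mitochondrial ubiquitin ligase, at 0.66 ± 0.16. Listed genes not analysed here included Mtfr2, Afg3l1, Samm50, Letmd1, Atp5me, Atp5mg, Crls1 and Tafazzin.

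Markers of the tissue were measured for 7 of 10 brown adipocyte genes, Ucp1 not being among them. Their mean centred log2 value was 0.15 to 0.23 in summer animals and -0.34 to 0.09 in torpid animals, with 2 of the 7 genes positive and 0 past the threshold. The mean of this list thus stood apart in the direction opposite to Ghitm and Marchf5. By single probes only Lhx8 on MA11 stood apart (-0.58 ± 0.23, limma adjusted p = 0.36), where 8.5% of all tested probes did in either direction. The part of brown adipocyte content in these results was not tested, and in bulk tissue fewer cells of a type and less RNA per cell cannot be told apart. For white adipocyte (7 of 8 genes measured), muscle (4 of 10), erythroid (2 of 4), immune (7 of 8), endothelial (4 of 6) and nerve markers (4 of 6) the summer and torpid ranges overlapped, with 0 genes past the threshold.

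**Figure D4:**
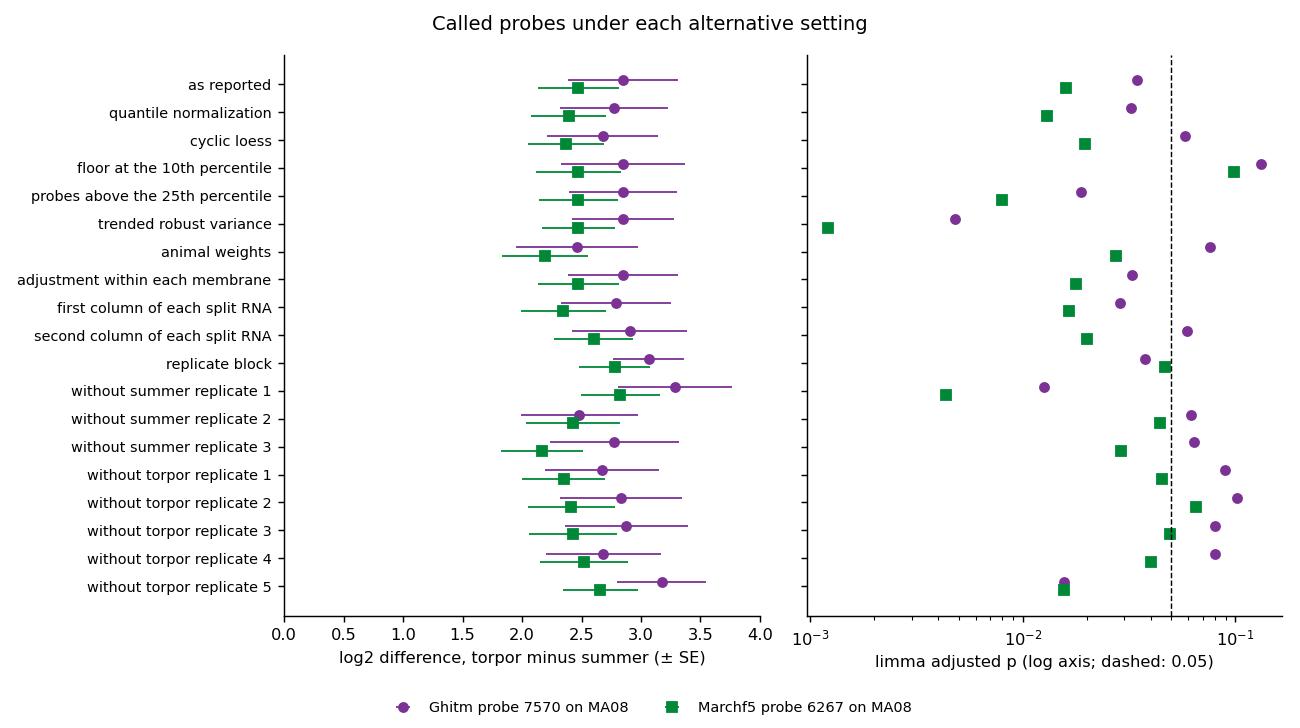
Log2 difference with its SE (left) and limma adjusted p on a log axis (right) for the 2 probes that passed, under the reported setting and each of 18 alternatives; the dashed line is 0.05. The differences stay between 2.17 and 3.28, while the adjusted p of Ghitm probe 7570 runs from 0.0048 to 0.13 and that of Marchf5 probe 6267 from 0.0012 to 0.098.

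The differences of both probes that passed kept their size better than their calls. Ghitm probe 7570 passed in 6 of the 10 alternatives of processing or model, and in 2 of the 8 that left out an animal. Marchf5 probe 6267 passed in 9 of the 10 and in 7 of the 8. With a floor at the 10th percentile, which called only 17 probes in all, neither passed. Over all alternatives no value of Ghitm or Marchf5 changed sign, and none of the other 8 genes reached the threshold, the lowest adjusted p among them being 0.095.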

How the data were processed

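Brown adipose RNA of 8 squirrels was read on 4 membranes in 44 columns. The authors deposited linear spot intensity values with every column median at 1 once empty cells are ranked lowest. How spots were imaged, background-corrected and scaled is not given in the sources used here. Cells left empty (1.30% to 6.38% per membrane, and 7 of 308 for these probes) were left missing, and log2 was taken with no floor. Probe symbols came from the platform annotation: 25070 probes had 1 symbol, 941 several and 12389 none. Sequences and coordinates were not used here.

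Each membrane was fitted with limma 3.58.1 (R 4.3.3; lmFit, eBayes, two-sided, torpor minus summer) for probes read in 2 or more animals of each group, and adjusted over all membranes by Benjamini-Hochberg. Gene averages used probes complete in 8 animals. Each of the 10 genes was named with every probe; listed pathway genes were named when called or over 1 log2 unit, apart from Mul1, chosen after its value was seen. The fits were tested on simulated data. The number of animals limits precision (median SE 0.29). Per the series' design the 8 RNAs are of separate animals. The genes, lists and tests were chosen with earlier results of these data known. Alternatives covered scaling, floor, dim probes, variance, weights, adjustment, duplicates, how probes were combined, leaving out each animal and a replicate block; counting each clone once was added after seeing the data.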

Additional observations from a re-analysis of the deposited data

Results flagged for a closer look

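Among 27 probes with at least 4 torpid values, 2 had a torpid animal far from the others, where chance gives about 1 in 20. At Mfn2 probe 2921 on MA08, torpid animal 5 was lowest at -0.67 against -0.08 for the nearest, a gap of 0.734 of the group's range (limit 0.71), and the difference was 0.58 without it. At Phb probe 1244 on MA11, torpid animal 1 was highest at 2.62 against 1.64, a gap of 0.811 of the range, and the difference was 0.10 without it.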

How the results depend on the processing

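Of the 28 probes 2 passed as reported. The count was 1 under cyclic loess, with animal weights and with the second column of each split RNA, 0 with a floor at the 10th percentile, and 4 for probes above the 25th percentile and with a trended robust variance. With 1 animal left out it ran from 0 to 4. Of the 10 gene averages 1 passed as reported, 0 under cyclic loess, the floor, animal weights, the first column or the replicate block, 2 with the median of a gene's probes, and 0 to 2 with 1 animal left out. Over all probes 117 passed as reported, 17 with the floor, 63 under cyclic loess (46 higher), 238 above the 25th percentile, 228 with the trended variance, 38 with the second column (24 higher), 176 with the first (156 higher), and 17 to 347 with 1 animal left out. Over all genes 20 passed, 7 under cyclic loess, 6 with the floor and 0 to 95 with 1 animal left out. The cause was not tested.

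The reported fits did not pair animals by replicate number. Deviations of same-numbered animals correlated at 0.021, 0.0053 and 0.014, while 2 summer animals of 3 were best matched by their own number. These values do not settle whether the numbers pair the animals. With the number as a replicate block, 35 probes passed in all, with the 2 reported probes among them at 3.06 for Ghitm (limma adjusted p = 0.038) and 2.78 for Marchf5 (adjusted p = 0.047), and 0 gene averages passed.

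No value of Ghitm or Marchf5 changed sign. In the other 8 genes 35 of 509 alternative values did, all of results that did not pass. Opa1 probe 3309 (-0.02) was 0.016 under quantile normalization, 0.063 under cyclic loess, 0.24 with animal weights, 0.12 with the second column and -0.27 to 0.28 with 1 animal left out. The Mfn1 average (0.04) was -0.00098 under cyclic loess, -0.0060 with the first column and -0.032 to 0.099 with 1 left out, and Mfn1 probe 1944 (-0.04) was 0.028 and -0.13 to 0.040 in the last 2. The Phb average (0.06) was -0.031 under cyclic loess, -0.042 with the second column, -0.32 for the brightest probe and -0.14 to 0.28 with 1 left out. Phb probe 3099 (0.17) was -0.00092 with the floor, -0.13 with the second column and -0.039 to 0.48 with 1 left out. Phb2 probe 5278 (-0.16) was 0.15 with animal weights, 0.21 with the second column and -0.82 to 0.58 with 1 left out. With the second column Fis1 probes 3836 (0.05) and 997 (0.19) were -0.23 and -0.27, and they were -0.12 to 0.27 with 1 left out and -0.16 with the replicate block, in that order. The Opa1 average (0.10) was -0.10 with the replicate block, Dnm1l (-0.31) ran from -0.71 to 0.0083 with 1 left out, and the Immt average (-0.32) was 0.56 for the brightest probe.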
